A study of Rattus norvegicus with 18 samples.

Results

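The genes described here encode the extracellular matrix, its receptors and the enzymes that cut it, measured in 2 rat thyroid cell lines. The genes were chosen by symbol, and measured values served only to pick the probe set for each gene. The rule was written with earlier results of these data known. A probe set had to carry exactly 1 symbol in the platform annotation, and that symbol had to begin as one for a collagen, laminin, integrin, syndecan, matrix metalloproteinase (Mmp), Adam protease, tissue inhibitor of metalloproteinases (Timp), plasminogen activator or its receptor, serpin, lysyl oxidase, TGF-beta or BMP gene, or to be Fn1 or a Sparc gene. This gave 101 of the 4736 genes on the array, covered by 139 probe sets, and the probe set that was brightest on average over the 18 arrays stands for each gene. The choice by symbol also took in genes with other roles, such as the kinase Bmp2k, the plasma serpins and the Adam genes known from the testis and epididymis.

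The matrix around a thyroid follicle is a basement membrane built of laminins and collagens, which cells hold through integrins and through syndecans, cell-surface proteoglycans. Matrix metalloproteinases and the plasminogen activators open this scaffold, and TIMPs and serpins inhibit proteases of these classes. TGF-beta and BMP ligands bind to the matrix and are released from it, and they in turn govern which matrix genes a cell uses.

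FRT/TSHR is a de-differentiated rat thyroid line whose name says that it holds the TSH receptor (TSH is thyroid-stimulating hormone), and FRTL5 is a differentiated rat thyroid line. Cells of each line were taken with no hormone (basal), 30 min after bovine TSH was added, and 17 h after it, at 1 U/L for FRT/TSHR and 0.1 U/L for FRTL5, with 3 biological replicates in each of the 6 groups. FRT/TSHR cells grew in a modified F12 medium and FRTL5 cells spent 5 days in TSH-free 5H medium, and all went without serum for 12 h before the hormone. Line, medium and dose therefore differ together and cannot be told apart, and no untreated group was sampled at 30 min or 17 h, so elapsed time and TSH cannot be told apart either.

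Values are log2 expression after RMA, a procedure that corrects background, normalizes arrays to each other and gives each probe set a single value. They can be compared between arrays for a given gene but not between genes. A difference of 1 on this scale is a change of 2-fold. Thyrocyte markers set the lines apart as their labels say: 0 of 7 measured were higher and 5 of 7 were lower in FRT/TSHR, led by thyroglobulin (Tg), which was lower by a log2 difference of -7.04 ± 0.37 (limma SE). The Tshr probe set had a mean of 6.65 in FRT/TSHR and 6.59 in FRTL5 over 9 arrays each. Epithelial markers were higher in FRT/TSHR for 7 and lower for 3 of 10 measured, beside 13.3% and 12.2% of all probe sets. The mean level of the epithelial markers was 8.79 to 9.02 on FRT/TSHR arrays and 6.64 to 6.85 on FRTL5 arrays. The ranges for mesenchymal and fibroblast markers were 5.49 to 5.62 in FRT/TSHR and 5.22 to 5.44 in FRTL5, for endothelial markers 5.54 to 5.74 in FRT/TSHR and 5.54 to 5.75 in FRTL5, and for leukocyte markers 5.37 to 5.72 in FRT/TSHR and 5.35 to 5.48 in FRTL5. The part of these marker differences in the results below was not tested. On the 3 FRTL5 arrays numbered 1 the 3' minus 5' signal of the beta-actin control was 1.13 to 1.22, against at most 0.28 on the other 15 arrays. Some of the genes that move with those arrays are given with and without them.

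Without hormone, matrix and adhesion genes differed between the lines in both directions, and 8 of the 13 families held both members that were higher and members that were lower in FRT/TSHR. The syndecan Sdc2 and the inhibitor Timp3 were 61.6-fold and 18.7-fold lower in FRT/TSHR, while the plasminogen activator Plat was 13.4-fold higher, the serpin Serpinb5 6.43-fold and the syndecan Sdc1 6.24-fold. The Timp3 fold was 30.4 without FRTL5 basal replicate 1. The lower group of Sdc2, Plat and Serpinb5 lay near the bottom of the scale, where detection above background was not measured. Their folds are therefore those of the measured values and are not shown to be exact. The same holds for genes below with a group that read as low, such as Lama3, Bmp4 and Col4a3. Of the 101 genes 29 passed an adjusted p of 0.05, 13 higher and 16 lower, and 11 in each direction differed at least 2-fold. That is 28.7% of the genes, near the background: 25.5% of all probe sets tested (13.3% higher, 12.2% lower) and 28.5% of all genes passed in the same comparison. The median difference of the 101 genes was -0.05, beside -0.04 over all probe sets. In such bulk RNA, fewer cells of a type and less RNA per cell cannot be told apart.

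**Figure D1:**
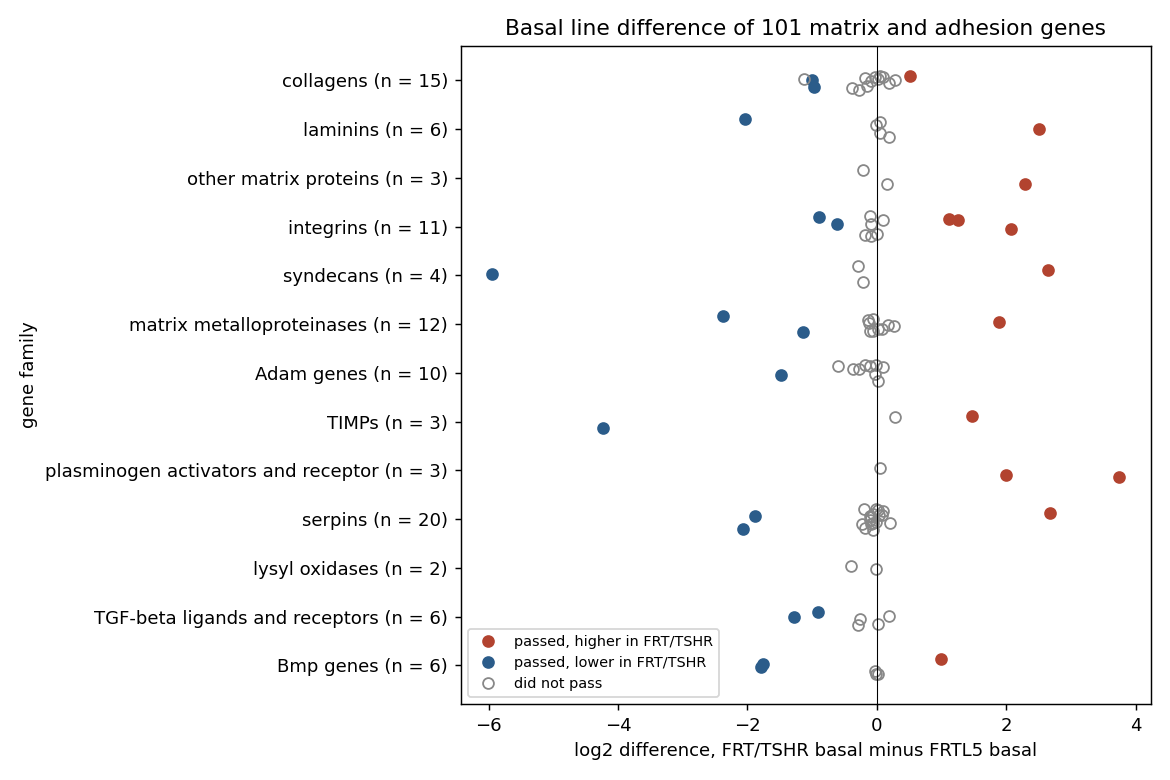
Each point is 1 of the 101 genes, placed by family (rows, with the number of genes measured) and by its log2 difference, FRT/TSHR basal minus FRTL5 basal. Filled points passed an adjusted p of 0.05 (red higher, blue lower in FRT/TSHR), and the extremes are Sdc2 at -5.95 and Plat at 3.75.

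The 4 syndecans, which carry heparan sulfate chains and bind growth factors and matrix, showed the widest split. Sdc2, the syndecan typical of mesenchymal cells, read 3.54, 3.69 and 3.51 in FRT/TSHR basal cells, against 9.63, 9.46 and 9.49 in FRTL5 basal cells. Sdc1, the syndecan typical of epithelia, read 7.87, 8.08 and 8.25 in FRT/TSHR, against 5.31, 5.42 and 5.54 in FRTL5. Neither gene's groups came near each other: the log2 difference was -5.95 ± 0.20 for Sdc2 (adjusted p = 1.97e-12, limma) and 2.64 ± 0.16 for Sdc1 (adjusted p = 3.31e-09, limma), and a further Sdc1 probe set was higher by 1.71. Sdc4, which sits in focal adhesions, averaged 11.23 ± 0.06 in FRT/TSHR and 11.44 ± 0.26 in FRTL5 (SD, n = 3 each) and did not pass, nor did Sdc3, the syndecan known from nerve tissue.

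The 3 TIMPs differed in direction. Timp3, the TIMP that stays bound to the matrix, read 5.42, 5.47 and 5.25 in FRT/TSHR basal cells, against 8.21, 10.02 and 10.59 in FRTL5 basal cells. The lines did not overlap, but FRTL5 replicate 1 lay well below the other FRTL5 arrays, which gives the difference of -4.23 a wide SE of 0.72 (adjusted p = 0.000281, limma). Without that array the difference was -4.92 (adjusted p = 9.36e-05, limma). Timp1, a soluble inhibitor of several metalloproteinases, read 8.18, 8.26 and 8.17 in FRT/TSHR and 6.63, 6.45 and 7.11 in FRTL5. Its difference was 1.47 ± 0.14 (adjusted p = 7.95e-07, limma), and a further Timp1 probe set was higher by 2.57. Timp2, which inhibits metalloproteinases and also takes part in activating Mmp2 with Mmp14, read 9.92, 9.82 and 9.78 in FRT/TSHR and 10.02, 9.28 and 9.37 in FRTL5. These groups overlapped through FRTL5 replicate 1 (10.02), and Timp2 did not pass (0.28 ± 0.25). Without the FRTL5 arrays numbered 1 the difference was 0.51 ± 0.21 and did not pass either (adjusted p = 0.0853, limma). Compared between the lines at 17 h of TSH, Timp2 was higher in FRT/TSHR by 1.35 ± 0.25 (adjusted p = 0.00081, limma).

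Among the proteases these inhibitors act on, 1 of 12 metalloproteinases was higher and 2 lower in FRT/TSHR, beside 13.3% and 12.2% of probe sets. Mmp14, a membrane-bound collagenase, read 5.96, 6.62 and 6.55 in FRT/TSHR, against 8.79, 8.99 and 8.46 in FRTL5. It was lower by 2.37 ± 0.20 on the log2 scale, a 5.18-fold difference (adjusted p = 1.97e-07, limma). Mmp11 (stromelysin-3 by its older name) averaged 5.65 ± 0.02 in FRT/TSHR and 6.79 ± 0.17 in FRTL5 (SD, n = 3 each), a difference of -1.14 ± 0.12. Mmp3, the stromelysin that cuts proteoglycans, fibronectin and other matrix proteins, was the member that ran the other way, at 7.32, 6.81 and 6.59 in FRT/TSHR against 5.12, 4.91 and 5.04 in FRTL5, a difference of 1.88 ± 0.33. The other 9 stayed between -0.14 and 0.26, among them the gelatinases Mmp2 (-0.12) and Mmp9 (-0.07). Of the 10 Adam genes Adam7, known from the epididymis, passed (-1.49 ± 0.19), and Adam17, a protease that releases membrane-bound growth factors, read -0.36 ± 0.16 and did not (adjusted p = 0.123, limma).

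Of 3 genes for plasminogen activators and a receptor, 2 were higher in FRT/TSHR, beside 13.3% of all probe sets. Plat, the tissue-type plasminogen activator, read 7.90, 7.97 and 8.34 in FRT/TSHR basal cells, against 4.33, 4.30 and 4.34 in FRTL5 basal cells, a log2 difference of 3.75 ± 0.33 (adjusted p = 2.76e-07, limma). Plaur, the receptor that holds urokinase at the cell surface, read 8.38, 8.40 and 8.38 in FRT/TSHR, against 6.24, 6.35 and 6.58 in FRTL5, a difference of 2.00 ± 0.16. Both genes kept every array of one line apart from every array of the other. Plau, urokinase itself, read 4.46, 4.91 and 4.46 in FRT/TSHR and 4.47, 4.63 and 4.58 in FRTL5, groups that overlap (0.05 ± 0.16).

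The 20 serpins included 3 that passed, beside 25.5% of all probe sets. Serpinb5 (maspin, a serpin of epithelia with no known protease target) averaged 6.72 ± 0.15 in FRT/TSHR and 4.03 ± 0.08 in FRTL5 (SD, n = 3 each), 2.68 ± 0.13 higher (adjusted p = 1.55e-10, limma). Serpinb9, the inhibitor of granzyme B, averaged 5.65 ± 0.12 in FRT/TSHR and 7.71 ± 0.05 in FRTL5 (difference -2.06 ± 0.17). Serpinh1, a collagen chaperone of the endoplasmic reticulum, averaged 6.70 ± 0.18 in FRT/TSHR and 8.58 ± 0.39 in FRTL5 (difference -1.88 ± 0.25). The remaining 17, many of them plasma proteins made by the liver, lay between -0.23 and 0.20.

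Laminins and their receptors also parted by chain. Lama3, the laminin alpha chain found under epithelia such as skin, read 5.96, 7.05 and 6.99 in FRT/TSHR against 4.30, 4.05 and 4.11 in FRTL5, a difference of 2.51 ± 0.29 (adjusted p = 5.92e-06, limma). Itgb4, the integrin beta chain of hemidesmosomes and a receptor subunit for that laminin, read 8.71, 9.24 and 8.34 in FRT/TSHR against 6.70, 6.64 and 6.71 in FRTL5, a difference of 2.08 ± 0.19. This ligand chain and this receptor chain were thus both higher in FRT/TSHR. Lamb2, a laminin beta chain of other basement membranes, read 6.95, 7.56 and 7.48 in FRT/TSHR against 9.19, 9.59 and 9.33 in FRTL5, a difference of -2.04 ± 0.21, and a dimmer Lamb2 probe set read -0.95 ± 0.47 and did not pass. The other laminins, Lama1, Lama2, Lama5 and Lamc1, lay between -0.01 and 0.19.

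Of the 11 integrin subunits 3 were higher and 2 were lower, beside 13.3% and 12.2% of all probe sets. Itgb1, the beta chain shared by many matrix receptors, averaged 9.86 ± 0.12 in FRT/TSHR and 8.61 ± 0.18 in FRTL5 (difference 1.25 ± 0.25), and its collagen-binding partner Itga1 averaged 6.08 ± 0.34 in FRT/TSHR and 4.96 ± 0.11 in FRTL5 (difference 1.12 ± 0.21; SD, n = 3 each). Itga7 is a laminin receptor chain known from muscle, and Itgae is a chain carried by lymphocytes that binds E-cadherin. Both are named because the count was small, after their values were seen. They were lower in FRT/TSHR by differences of -0.89 ± 0.12 and -0.61 ± 0.13, and of their further probe sets 1 of 2 for Itga7 and 0 of 2 for Itgae passed.

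Fibronectin (Fn1), the adhesive glycoprotein of provisional matrix, read 8.20, 8.55 and 8.54 in FRT/TSHR basal cells, against 6.72, 5.85 and 5.85 in FRTL5 basal cells, a difference of 2.29 ± 0.29 (adjusted p = 1.44e-05, limma). FRTL5 replicate 1 was the high array of its group, yet below every FRT/TSHR array. Of the other 4 Fn1 probe sets 2 were higher (0.88 and 1.23) and 2 did not pass (0.25 and 0.10). Sparc, a collagen-binding matricellular protein, gave no single answer: its brightest probe set averaged 10.95 ± 0.43 in FRT/TSHR and 10.80 ± 0.74 in FRTL5 (difference 0.15 ± 0.30), while a further Sparc probe set passed at -0.93 and the remaining 2 read -1.26 and -0.62 without passing.

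Of 15 collagen genes measured 12 did not pass, while 25.5% of all probe sets passed. Col12a1, a collagen found on the surface of fibrils, was higher by 0.52 ± 0.14. Col4a3, a chain of basement membrane collagen, averaged 3.53 ± 0.07 in FRT/TSHR and 4.53 ± 0.27 in FRTL5 (SD, n = 3 each) and was lower, 2.00-fold (adjusted p = 0.00026, limma). Col5a1, a chain of a collagen that starts fibrils, was lower with a difference of -0.96 ± 0.29, or -1.16 ± 0.19 without the FRTL5 arrays numbered 1. The calls of Col12a1 and Col5a1 were the fragile ones: Col12a1 did not pass without FRTL5 basal replicate 1 (adjusted p = 0.0534, limma), and Col5a1 did not pass in 4 of 6 fits that each left out 1 array (adjusted p up to 0.0922). Col8a1, the brightest collagen probe set and a short-chain network collagen, read -0.38 ± 0.15 (adjusted p = 0.0796, limma). The lysyl oxidases Lox and Loxl1, which cross-link collagen and elastin, read -0.01 ± 0.13 and -0.40 ± 0.32 and did not pass.

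Of 6 Bmp genes 1 was higher and 2 were lower in FRT/TSHR, and of 6 genes with Tgfb symbols 0 were higher and 2 were lower. Over all probe sets 13.3% were higher and 12.2% lower. The ligands Bmp2 (-0.01), Bmp6 (0.02) and Tgfb2 (0.02) did not pass, nor did the receptors Tgfbr1 (-0.28) and Tgfbr3 (-0.27). Bmp7 averaged 7.11 ± 0.11 in FRT/TSHR and 8.89 ± 0.08 in FRTL5 (difference -1.78 ± 0.15), and Bmp4 averaged 4.05 ± 0.06 in FRT/TSHR and 5.81 ± 0.50 in FRTL5 (difference -1.76 ± 0.23; SD, n = 3 each). Without the FRTL5 arrays numbered 1 the Bmp4 difference was -2.04 ± 0.14. The ligands Tgfb1 and Tgfb3 were lower too, with differences of -1.28 ± 0.24 and -0.91 ± 0.14, and a further Tgfb3 probe set read -1.16. Bmp3, a BMP that opposes others of its family, was higher by 0.99 ± 0.20. Tgfbrap1, a protein that binds TGF-beta receptors, read 0.19 ± 0.18 and did not pass.

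**Figure D2:**
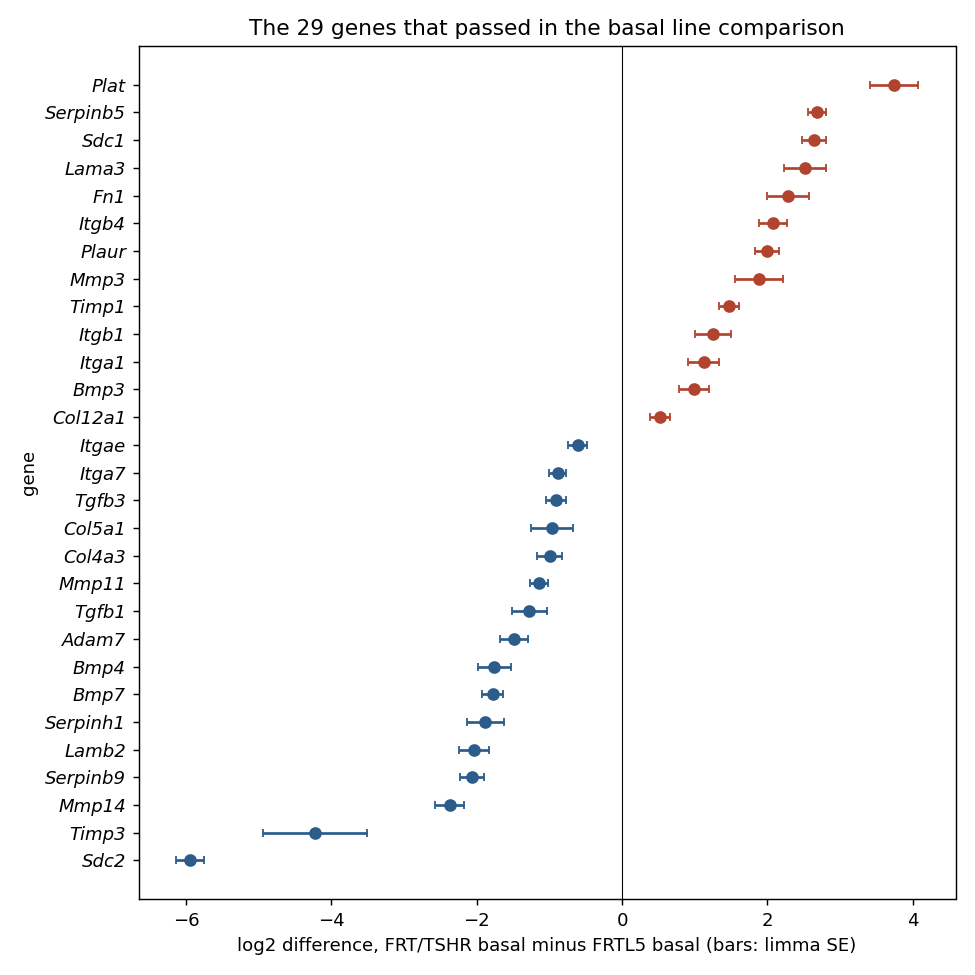
The 29 genes that passed in the basal comparison of the lines, ordered by log2 difference (FRT/TSHR basal minus FRTL5 basal, x axis), with bars of 1 limma SE. Red points are higher and blue points lower in FRT/TSHR, and Timp3 has the longest bar (SE 0.72).

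Of the 72 genes that did not pass, 70 lay within 0.5 of 0, and the median half-width of a 95% interval over the 101 genes was 0.30. The largest difference among them was that of Col4a5, a basement membrane collagen chain, at -1.13 ± 0.58 (named after its values were seen). FRTL5 basal replicate 1 carried it: without that array it read -0.40 (adjusted p = 0.656, limma). With replicate number as a block 35 of the 101 genes passed, 13 higher and 22 lower, beside 34.3% of all probe sets (17.2% higher and 17.2% lower). The 6 added were all lower, among them Adam17 (adjusted p = 0.0349, limma), Col8a1 (adjusted p = 0.0155) and Col4a5 (adjusted p = 0.000165). But that fit leaves the spread between the replicate numbers of a line out of the error of this comparison. Of the 47 genes with a mean under 5.03, the 40th percentile of all probe sets, 5 passed (10.3% of all probe sets that dim did), and of the 54 brighter ones 24 passed (35.6%). A gene high in 1 line has a higher mean, so this split is not independent of the line difference. A gene near the bottom of the scale cannot be called absent.

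The line differences were still there with hormone. Compared at 30 min, 28 of the 101 genes passed (22.8% of all probe sets), and at 17 h 29 did (20.4%). These comparisons were added after the basal result was seen. Of the 29 basal calls 27 passed the same way at 30 min, 28 at 17 h and 26 at all 3 times. Of all probe sets called at basal, 76.8% did so at 30 min and 64.4% at 17 h. For 26 of the 29 all 9 FRT/TSHR arrays lay apart from all 9 FRTL5 arrays, beside 58.8% of all probe sets called at basal. The 3 genes outside that count were Col4a3, Itgae and Itgb1. Sdc2, for example, ran from 3.42 to 3.76 with a median of 3.56 on the FRT/TSHR arrays, and from 8.80 to 9.63 with a median of 9.49 on the FRTL5 arrays. Timp3 ran from 5.06 to 5.53 (median 5.47) in FRT/TSHR and from 6.94 to 10.83 (median 9.65) in FRTL5. Plat ran from 7.30 to 9.04 (median 7.92) in FRT/TSHR and from 4.30 to 4.83 (median 4.49) in FRTL5.

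**Figure D3:**
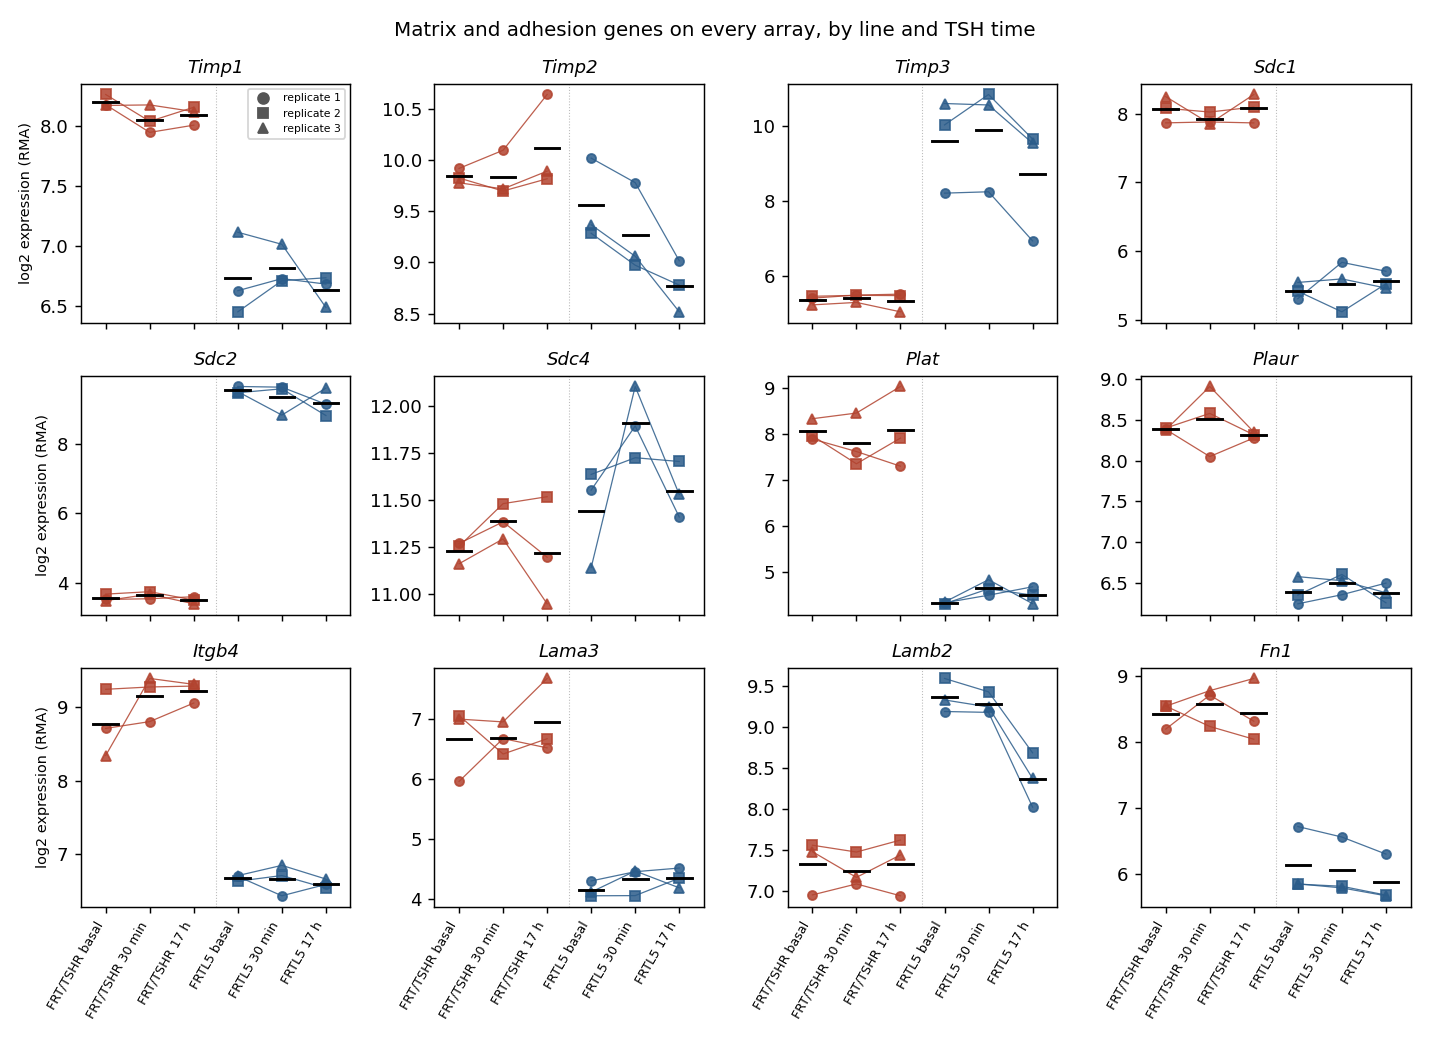
Log2 expression (y axis, its range set per gene) of 12 matrix and adhesion genes on each of the 18 arrays, by group on the x axis. Red is FRT/TSHR and blue FRTL5, marker shapes are replicates 1 to 3 joined across times, black bars are means. Sdc2 and Timp3 sit low and Plat, Sdc1 and Plaur sit high on all 9 FRT/TSHR arrays, while FRTL5 replicate 1 stands below the other FRTL5 arrays for Timp3 and above them for Fn1.

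The 3 FRTL5 arrays numbered 1 departed for some of these genes. Timp3 read 8.21, 8.25 and 6.94 on them (basal, 30 min, 17 h), against 9.54 to 10.83 on the other 6 FRTL5 arrays. Fn1 read 6.72, 6.56 and 6.30 on them, against at most 5.85 on the other 6. Timp3 was thus lower and Fn1 higher on those arrays at every time, along with the beta-actin signal given above. Without these 3 arrays the basal difference was -4.92 ± 0.18 for Timp3 and 2.58 ± 0.22 for Fn1, and both passed, while Col12a1 did not (0.43 ± 0.15, adjusted p = 0.0509, limma).

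Promoter sequence is shown for 4 higher genes and for Timp3, a lower gene. The 4 held the letters TGANTCA, with N any base, which were searched for as a loose form of the AP-1 site. This site is a motif bound by Fos and Jun factors and long known in protease promoters. The 4 were picked for the match, so the printed windows do not represent the higher genes. The other higher genes with a promoter, Sdc1 among them, held no AP-1 letters and are not printed. RefSeq (build GRCr8) gave a promoter of 300 bases, from 250 before to 50 after the gene's start, for 72 of the 101 genes. TGANTCA, read on both strands, occurred in 9 of the 72 (12.5%), beside 7.33% of 27457 promoters in the table. Those 9 were 4 of the 9 higher genes with a promoter (Lama3, Mmp3, Plaur and Serpinb5), 0 of the 10 lower ones and 5 of the 53 that did not pass (Mmp7, Mmp10, Mmp12, Mmp13 and Serpinb2). The GC box GGGCGG occurred in 34 of 72 (47.2%, beside 34.9%), the letters TATAAA in 11 (15.3%, beside 14.3%) and the cAMP response element TGACGTCA in 0 (beside 1.91%). Capitals below mark the AP-1 letters, the GC box or TATAAA on either strand. The windows lie at chr18:3952517-3952816 (plus strand), chr8:12925031-12925330 (plus), chr1:89181113-89181412 (plus), chr13:23499953-23500252 (plus) and chr7:19459509-19459808 (minus), each printed along its gene.
Lama3: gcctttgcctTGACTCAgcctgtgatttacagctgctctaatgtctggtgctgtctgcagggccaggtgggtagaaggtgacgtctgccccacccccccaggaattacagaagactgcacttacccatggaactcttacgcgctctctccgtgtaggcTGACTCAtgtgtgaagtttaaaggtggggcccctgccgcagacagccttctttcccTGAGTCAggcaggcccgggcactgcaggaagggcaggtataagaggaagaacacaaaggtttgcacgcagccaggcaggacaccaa
Mmp3: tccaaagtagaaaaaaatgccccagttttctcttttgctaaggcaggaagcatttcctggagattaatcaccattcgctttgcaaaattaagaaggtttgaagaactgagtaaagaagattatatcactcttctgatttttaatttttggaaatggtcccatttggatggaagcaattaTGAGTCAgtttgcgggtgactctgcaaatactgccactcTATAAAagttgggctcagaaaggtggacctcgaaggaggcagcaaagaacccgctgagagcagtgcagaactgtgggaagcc
Plaur: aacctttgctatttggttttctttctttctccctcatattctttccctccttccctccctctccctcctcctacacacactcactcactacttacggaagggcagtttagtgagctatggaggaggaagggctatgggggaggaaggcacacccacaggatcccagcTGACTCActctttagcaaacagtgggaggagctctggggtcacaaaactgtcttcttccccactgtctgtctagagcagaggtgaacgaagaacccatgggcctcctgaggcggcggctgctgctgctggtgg
Serpinb5: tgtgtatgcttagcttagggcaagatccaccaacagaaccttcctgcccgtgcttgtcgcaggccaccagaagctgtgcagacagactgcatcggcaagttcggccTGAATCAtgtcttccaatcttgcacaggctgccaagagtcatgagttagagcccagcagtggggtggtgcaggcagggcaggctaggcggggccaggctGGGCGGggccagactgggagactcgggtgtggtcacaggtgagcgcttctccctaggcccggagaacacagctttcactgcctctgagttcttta
Timp3: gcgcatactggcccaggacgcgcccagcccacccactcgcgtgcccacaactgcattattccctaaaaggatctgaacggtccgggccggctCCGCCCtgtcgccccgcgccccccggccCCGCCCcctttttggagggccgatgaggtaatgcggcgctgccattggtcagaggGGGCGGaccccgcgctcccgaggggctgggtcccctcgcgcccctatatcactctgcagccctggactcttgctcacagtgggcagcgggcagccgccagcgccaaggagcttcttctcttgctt
Lama3 held the AP-1 letters at 3 places, starting 240, 92 and 36 bases before the gene's start. Mmp3 held them 71, Plaur 83 and Serpinb5 144 bases before it. In Lama3, Mmp3 and Plaur these letters read TGACTCA or TGAGTCA, and in Serpinb5 TGAATCA. The search allowed any base at N, so a match need not be an AP-1 site, in these windows or in the counts. The Timp3 window held none, but the GC box at 3 places. These matches describe letters in the windows; binding was not measured, and no test was made.

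After 17 h of TSH 5 matrix genes fell in FRTL5 and none rose: Serpinb9, Lamb2, Mmp11, Adam7 and Bmp4. The sizes were modest, 1.49-fold to 2.22-fold. The 5 of 101 genes are 4.95%, near the 3.56% of all probe sets and 4.12% of all genes called in this comparison in either direction. Of all probe sets 1.92% were called lower and 1.64% higher. Whether the share that fell departs from the background was not tested. Serpinb9 read 6.55, 6.55 and 6.60 at 17 h, against 7.69, 7.69 and 7.77 at basal, a log2 difference of -1.15 ± 0.17 (adjusted p = 0.00128, limma). Lamb2 read 8.02, 8.68 and 8.37 at 17 h, against 9.19, 9.59 and 9.33 at basal, a difference of -1.01 ± 0.21 (adjusted p = 0.0124, limma). In both genes every 17 h array lay below every basal array. Mmp11 read 6.36, 6.14 and 6.15 at 17 h, against 6.70, 6.98 and 6.69 at basal (difference -0.57 ± 0.12, adjusted p = 0.0168, limma). Adam7 read 5.35, 5.00 and 4.93 at 17 h, against 6.18, 5.73 and 5.71 at basal (difference -0.78 ± 0.19, adjusted p = 0.0341, limma). Bmp4 read 4.60, 5.10 and 5.09 at 17 h, against 5.24, 6.15 and 6.04 at basal (difference -0.88 ± 0.23, adjusted p = 0.0437, limma). These 3 genes did not overlap between the groups either. Over all probe sets 7.78% were apart in that direction.

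Serpinb9 passed in every fit that left out 1 array of the groups compared. Bmp4 did not pass in 5 of those 6 fits, Adam7 in 4, Mmp11 in 3 and Lamb2 in 2, none of these 4 passed when the 6 arrays compared were fitted alone (adjusted p 0.0716 to 0.234, limma), and Lamb2 also read an adjusted p of 0.0566 (limma) without the FRTL5 arrays numbered 1.

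Replicates of a number resembled each other across times, and with replicate number as a block 11 genes fell at 17 h in FRTL5 and none rose (background 9.92%, 5.77% lower). The 6 added were Timp3 (-0.90, adjusted p = 0.00161), Timp2 (-0.79, adjusted p = 0.00202), Mmp14 (-0.66, adjusted p = 0.00388), Col4a5 (-0.79, adjusted p = 0.0121), Col4a3 (-0.61, adjusted p = 0.0388) and Itga7 (-0.32, adjusted p = 0.0405), all by limma. Timp3 read 6.94, 9.65 and 9.54 at 17 h, against 8.21, 10.02 and 10.59 at basal. For each replicate number the 17 h array was lower than the basal array, although the groups overlapped. The labels do not say what arrays of a number share. Timp2 read 9.02, 8.78 and 8.52 at 17 h against 10.02, 9.28 and 9.37 at basal, and Mmp14 8.06, 8.21 and 8.01 at 17 h against 8.79, 8.99 and 8.46 at basal. Both of these were lower on every 17 h array than on every basal array. Without the block the adjusted p was 0.730 for Timp3, 0.115 for Timp2 and 0.105 for Mmp14 (limma).

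**Figure D4:**
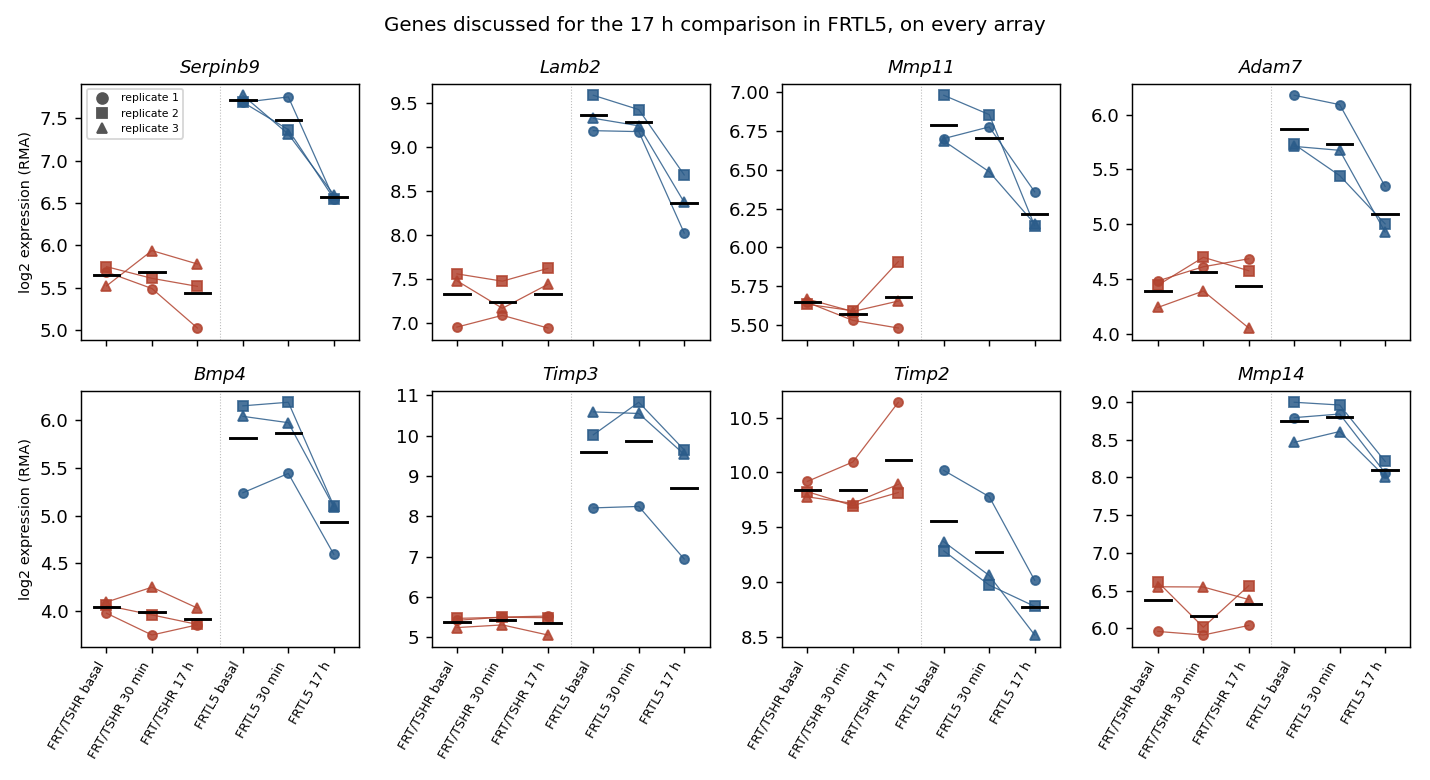
Log2 expression (y axis, its range set per gene) of 8 matrix genes on each array, by group on the x axis. Red is FRT/TSHR and blue FRTL5, marker shapes are replicates joined across times, black bars are means. In FRTL5 the 17 h array is lower than the basal array of the same number for all 8 genes, and Serpinb9 reads 6.55 to 6.60 at 17 h.

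All 5 genes that fell in FRTL5 at 17 h were also lower in FRT/TSHR than in FRTL5 at basal. The FRTL5 basal arrays enter both comparisons, which moves both differences the same way, so the values are only set side by side. The same share over all probe sets that fell at 17 h was not counted. The overlap is therefore not a result about matrix genes. For Serpinb9 the line difference was -2.06 and the 17 h difference in FRTL5 -1.15, for Lamb2 -2.04 and -1.01, for Mmp11 -1.14 and -0.57, for Adam7 -1.49 and -0.78, and for Bmp4 -1.76 and -0.88.

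At 30 min FRTL5 had no matrix gene past the threshold, beside 0.240% of all probe sets. At an unadjusted p of 0.05, 3 of the 101 genes stood out (2.76% of all probe sets did). Sdc4, the focal adhesion syndecan, read 11.89, 11.72 and 12.10 at 30 min, against 11.55, 11.63 and 11.14 at basal, a difference of 0.46 ± 0.15 (limma, unadjusted p = 0.00821, adjusted p = 0.950). Its groups did not overlap, but the difference did not pass over all probe sets. Col1a2, a fibrillar collagen chain, read 0.34 ± 0.16 and the serpin Serpina3l 0.26 ± 0.10.

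In FRT/TSHR no matrix gene passed at 30 min or at 17 h, and neither did any probe set (0%). At an unadjusted p of 0.05 there were 2 genes at 30 min (2.38% of probe sets) and 1 at 17 h (1.24%). Itgb1 read 9.79, 8.90 and 8.48 at 30 min, against 9.89, 9.72 and 9.95 at basal, a difference of -0.80 ± 0.25 that rests on replicates 2 and 3 (adjusted p = 1, limma). Loxl1 read 0.73 ± 0.32 and Tgfbr1, a TGF-beta receptor, 0.28 ± 0.14 at 30 min. Itgb4 read 9.05, 9.28 and 9.30 at 17 h, against 8.71, 9.24 and 8.34 at basal, a difference of 0.45 ± 0.19 with overlapping groups. Col1a2 read -0.30 ± 0.16 and Serpinb2, an inhibitor of urokinase, 0.19 ± 0.09. At 17 h all 101 genes lay within 0.5 of 0, and the 5 genes that fell in FRTL5 read -0.21 (Serpinb9, 95% interval -0.57 to 0.14), 0.00 (Lamb2, -0.43 to 0.44), 0.03 (Mmp11, -0.23 to 0.30), 0.05 (Adam7, -0.36 to 0.46) and -0.13 (Bmp4, -0.61 to 0.36).

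Whether the TSH response itself differed between lines was tested as the effect in FRT/TSHR minus that in FRTL5. No matrix gene passed at 30 min (0.0343% of all probe sets) or at 17 h (0.789%). At an unadjusted p of 0.05, 3 genes stood out at 30 min (2.60% of probe sets) and 8 at 17 h (8.38%). At 17 h the smallest adjusted p-values belonged to Serpinb9 (difference of effects 0.94 ± 0.24, adjusted p = 0.0817), Lamb2 (1.01 ± 0.29, adjusted p = 0.146) and Mmp11 (0.61 ± 0.18, adjusted p = 0.155), all by limma. Both lines' own values are given above. At 30 min the 3 genes were Itgae (0.49 ± 0.18), Serpinb2 (0.33 ± 0.13) and Itgb1 (-0.85 ± 0.35). With the replicate block 7 genes passed at 17 h, all with a positive difference of effects (background 4.18%, 2.11% higher): Lamb2 (adjusted p = 0.00267), Adam7 (0.00641), Timp2 (0.00776), Bmp4 (0.01), Serpinb9 (0.0221), Timp3 (0.0303) and Mmp11 (0.0457). All 7 fell in FRTL5 in that fit, while their 17 h effects in FRT/TSHR lay between -0.21 (Serpinb9) and 0.28 (Timp2) and did not pass. Without the block, 3 genes passed with array weights, Mmp11 (adjusted p = 0.0226, limma), Serpinb9 (0.0284) and Adam7 (0.0316), and Serpinb9 passed without FRT/TSHR 17 h replicate 1 (0.0288). A difference in the 17 h response of these genes between lines therefore depends on the fit, and it goes together with the difference in dose and medium.

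Genes that work with the matrix but were not in the set were counted by list. At basal, core matrix glycoproteins and proteoglycans were higher in FRT/TSHR for 2 and lower for 3 of 20 measured, with agrin (Agrn), a basement membrane proteoglycan, at 1.24 ± 0.24, the elastic fibre protein Fbln5 at 0.68 ± 0.14 and tenascin (Tnc) at -0.47 ± 0.12. Enzymes of collagen maturation were higher for 1 and lower for 2 of 7: the prolyl hydroxylase subunit P4ha1 read 1.78 ± 0.21, and the lysyl hydroxylases Plod2 and Plod1 read -1.07 ± 0.17 and -0.79 ± 0.23. Integrin and focal adhesion genes were higher for 3 and lower for 2 of 13, and 7 of the 13 had a higher value. The 3 with the smallest p were all higher: the hyaluronan receptor Cd44 (2.00 ± 0.25), the tetraspanin Cd9 (1.31 ± 0.18) and the focal adhesion adaptor paxillin (Pxn, 1.06 ± 0.17). The 2 lower genes are not named. The list medians were -0.09, 0.12 and 0.13, beside -0.04 over all probe sets. Of all probe sets 13.3% were called higher and 12.2% lower at basal.

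TGF-beta and BMP signalling genes were higher in FRT/TSHR for 3 and lower for 5 of 26, beside 13.3% and 12.2% of all probe sets. Their median was -0.04. The BMP target Id3 read -2.65 ± 0.23 while its relative Id2 read 2.31 ± 0.37, so 2 genes of the same family ran opposite ways, and the BMP signal transducer Smad9 read -0.63 ± 0.12. After TSH in FRTL5, Id1, another BMP target, rose at 30 min (1.07 ± 0.15, adjusted p = 0.00277, limma) and fell at 17 h (-0.68 ± 0.15, adjusted p = 0.0170, limma). At 17 h in FRTL5 the focal adhesion list held 2 genes that fell, Cd9 (-1.15 ± 0.18) and Pxn (-0.82 ± 0.17), and none that rose. Of all probe sets 1.92% were called lower and 1.64% higher there. Core matrix glycoproteins and collagen maturation enzymes had 0 of 20 and 0 of 7 past the threshold in each TSH comparison of either line.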

How the data were processed

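The authors deposited 1 value per probe set and array, made with RMA, per the submitters' processing notes, whose version and settings are not given in the sources used here. That these deposited values are log2 was judged from their range (2.61 to 13.58, array medians 5.47 to 5.59). Scanner files were not analysed here. Of 8799 probe sets 59 controls were left out and 8740 tested. The platform annotation gave 1 symbol to 7006, several to 308 and none to 1426; 6985 of those with 1 symbol were found by gene number in the RefSeq table (GRCr8), with 0 symbols changed.

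The model was fitted in limma 3.58.1 (R 4.3.3), with 6 group means over all 18 arrays (12 residual and 3.597 prior degrees of freedom), two-sided, Benjamini-Hochberg adjusted over 8740 probe sets within each of 7 comparisons, called at an adjusted p of 0.05. The procedure was tested on simulated data. Errors of differences are limma standard errors, group values mean ± SD of 3 arrays, and the number of arrays limits the precision. Within a line, arrays of the same number deviated together (r 0.158 to 0.619 over 9 pairs in FRT/TSHR, 0.148 to 0.798 over 9 pairs in FRTL5), while arrays of different number had r of -0.410 to -0.030 in FRT/TSHR and -0.639 to 0.628 in FRTL5. Every same-number r was over 0.1, so the replicate number, which the labels give, was used as a block within each line in an alternative fit. Other alternatives were the arrays fitted, 2 further normalizations, a filter on dim probe sets, the variance prior, array weights, and leaving out arrays.

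The members and lists were chosen with earlier results of these data known. Named were up to 14 of the largest differences in each direction at basal that passed without overlap, every gene called in a TSH comparison or else the 3 smallest p-values, the brightest gene of each family, Timp3, Sdc2 and Plat, and up to 3 genes per list.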

Additional observations from a re-analysis of the deposited data

How the results depend on the processing

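The number of matrix genes called at basal was 28 to 29 in the fits without 1 array (1877 to 2068 probe sets, 2226 with all arrays) and stayed within 1.5 times of 29 in every other alternative run. The counts in FRT/TSHR after TSH were 0 throughout. The FRTL5 counts moved. At 30 min, where 21 probe sets were called, the count was 40 with the replicate block, 2 with only the arrays compared, 48 with array weights, 45 without the FRTL5 arrays numbered 1 and 12 to 44 without 1 array (44 without FRTL5 30 min replicate 1, 12 without its replicate 2, 13 without basal replicate 2), with 0 matrix genes in all. At 17 h, where 311 probe sets and 5 matrix genes were called, the block gave 867 and 11, only the arrays compared 96 and 1, array weights 600 probe sets, a filter on dim probe sets 3 matrix genes, and fits without 1 array 152 to 253 probe sets and 2 to 4 matrix genes (2 without basal replicate 2 and without 17 h replicate 2 or 3, 3 without 17 h replicate 1). For the difference of effects at 30 min (3 probe sets) the counts were 8 with the block, 1 with only the arrays compared, 12 with array weights, 25 without the FRTL5 arrays numbered 1 and 1 to 24 without 1 array (24 without FRTL5 30 min replicate 1). At 17 h (69 probe sets, 0 matrix genes) they were 365 and 7 with the block, 22 probe sets with only the arrays compared, 210 and 3 with array weights, and 33 to 83 probe sets and 0 to 1 matrix gene without 1 array (Serpinb9, adjusted p = 0.0288 by limma, without FRT/TSHR 17 h replicate 1). The block changed no call of a matrix gene beyond those given above and those of Adam10, Tgfbr1 and Tgfbr3 at basal. Among the genes named by the rule, 2 that did not pass turned sign at basal: Sparc read -0.10 with array weights and -0.21 (without FRTL5 basal replicate 3) to 0.53 without 1 array, and Tgfbrap1 -0.022 (without FRTL5 basal replicate 3) to 0.35. Lama5, outside that rule, turned from 0.06 to -0.37 without FRTL5 basal replicate 1 and -0.28 without FRT/TSHR basal replicate 2. Fits to fewer arrays have fewer degrees of freedom; the cause of the other shifts was not tested.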

Other observations

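Some matrix genes that did not pass in the basal comparison of all arrays separated the FRTL5 arrays numbered 1 from the other 6 FRTL5 arrays at every time. They were picked after their values were seen and are given as values only. Col4a5 read 7.21, 7.11 and 5.84 on the arrays numbered 1 (basal, 30 min, 17 h), against 4.40 to 5.36 on the other 6. Lama5, a laminin alpha chain of epithelial and vascular basement membranes, read 6.61, 6.54 and 6.60, against 7.65 to 8.10 on the other 6. Adam10, a protease that releases membrane proteins, read 4.94, 5.10 and 4.97, against 6.06 to 6.49. Col4a5 was higher and Lama5 and Adam10 lower on these arrays, whose beta-actin 3' minus 5' signal was 1.13 to 1.22, and the basal line difference without them was -0.40 for Col4a5 and -0.37 for Lama5 (neither passed). Adam10 passed as lower in FRT/TSHR at basal once they were left out (-0.98, adjusted p = 0.00114, limma) and with array weights (adjusted p = 0.0348, limma).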
